A study of Mus musculus with 6 samples.

Results

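The genes described here are 10 tight junction genes of mouse intestinal organoids: the claudin genes Cldn2, Cldn3, Cldn4, Cldn7, Cldn12, Cldn15 and Cldn23, occludin (Ocln), and the zonula occludens scaffold genes Tjp1 and Tjp3. They were chosen by name, as 10 of the 24786 gene symbols in the deposited counts, and all 10 had enough counts to be tested. RNA came from wild-type organoids, which are epithelial structures grown in culture from gut stem cells. After 10 min of dissociation to single cells, 3 libraries' cultures had 16 h of exposure to tyramine, an amine that bacteria form from tyrosine, at 100 µM, and 3 served as controls. The control titles name DMSO, a solvent, while the design text names control medium. The labels give no mouse strain, age or gut region, nor what the replicates of a group share (a mouse, a culture or an extraction). All p-values rest on the spread among libraries, and that spread could be technical.

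Tight junctions seal the space between neighbouring epithelial cells near their apical side. Claudins span the membrane there and decide what passes between cells: pore-forming claudins let small ions or water through, and sealing claudins restrict them. Occludin is a further membrane protein of the strand, and zonula occludens proteins bind the inner ends of claudins and occludin and tie them to actin. In the gut, claudin-2 is known from the crypt, where cells divide, and several sealing claudins from more mature cells. The genes were grouped as pore-forming (Cldn2, Cldn12 and Cldn15), sealing (Cldn3, Cldn4, Cldn7 and Cldn23) and scaffold or strand (Ocln, Tjp1 and Tjp3). These classes are those of general knowledge. Claudin-7 has been described with both barrier and channel roles, and claudin-12 has been linked to calcium passage, so the results were also computed without either.

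The libraries held 28316372 to 35035955 counts. Levels are CPM, each gene's count relative to its library's scaled total, as mean ± SD of the 3 libraries in a group (n = 3 throughout). Differences are edgeR log2 fold changes with their standard error (SE), positive where tyramine was higher, from the quasi-likelihood test. A gene was said to rise or fall where its p, adjusted by the Benjamini-Hochberg method over all 12139 genes tested, was below 0.05. By that rule 25.8% of all tested genes changed, 12.5% rising and 13.3% falling, and 44.5% had no overlap between the groups' CPM. Of the 10 junction genes, 6 changed, 3 rising (Cldn4, Ocln and Tjp1) and 3 falling (Cldn2, Cldn15 and Tjp3). In 7 of the 10 the groups did not overlap: these 6 and Cldn7. The median log2 fold change of the 10 was 0.09, beside 0.00409 over all tested genes.

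**Figure D1:**
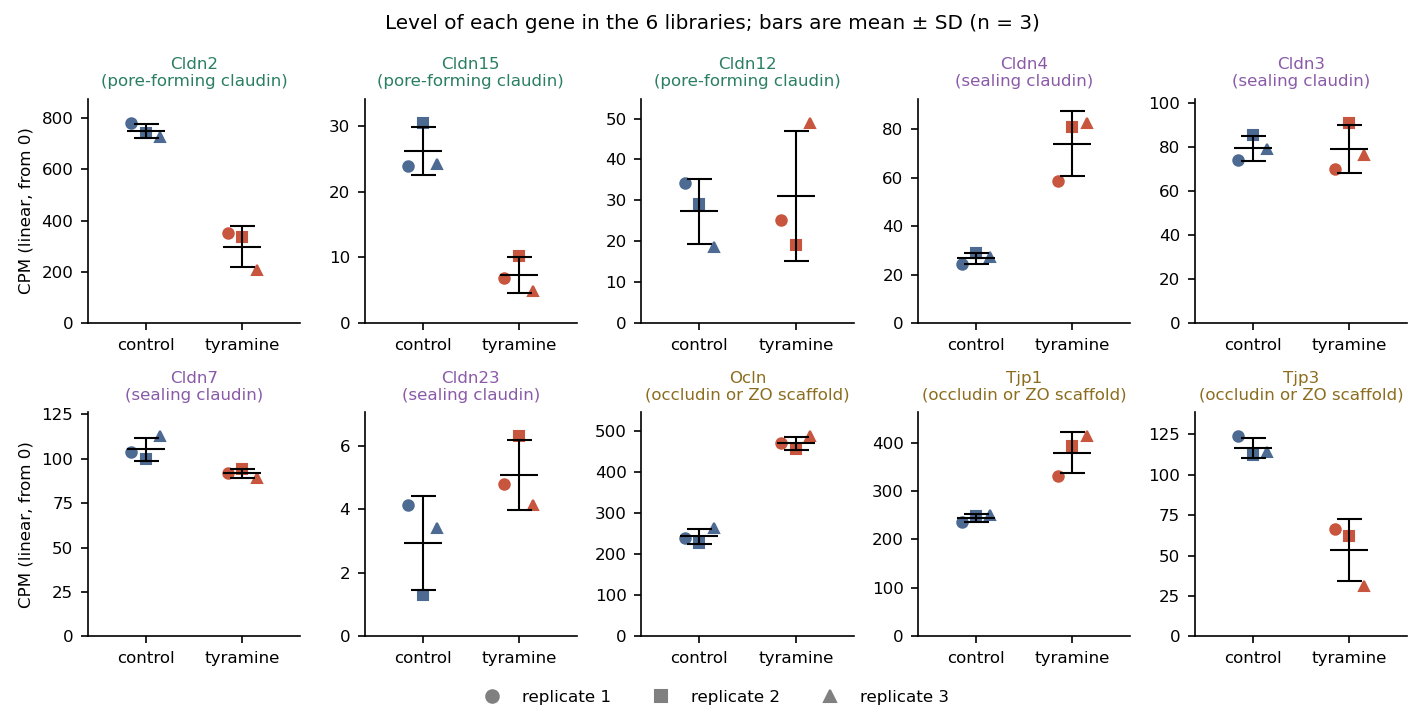
CPM (vertical axes, linear and starting at 0, each with its own scale) of the 10 genes in the control and tyramine libraries. Symbols are the replicates and black bars the mean ± SD (n = 3); Cldn2, Cldn15 and Tjp3 sit lower with tyramine, Cldn4, Ocln and Tjp1 sit higher, and Cldn12 overlaps widely, with tyramine replicate 3 at 48.9 CPM.

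Pore-forming claudins fell in 2 of 3 cases, beside 13.3% of all tested genes. Cldn2 encodes a channel for sodium and water (chromosome X, 139800828 to 139811386, plus strand, positions of GENCODE M21 on GRCm38 here and below). Its level was 782, 743 and 727 CPM in control replicates 1 to 3 and 352, 335 and 209 CPM in tyramine replicates 1 to 3. Each tyramine library lay below each control library, by at least 2.06-fold. The mean fell from 751 ± 28.1 to 299 ± 78.4 CPM, 2.51-fold (edgeR log2 fold change -1.33 ± 0.17 SE, adjusted p = 0.00042). The lowest library was tyramine replicate 3, and without it the log2 fold change was -1.13.

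Cldn15 encodes a sodium channel of the small intestine that returns sodium to the gut lumen for nutrient uptake (chromosome 5, 136966616 to 136975858, plus strand). It was measured at 23.9, 30.5 and 24.2 CPM in the controls and at 6.92, 10.2 and 4.8 CPM with tyramine. The groups were again apart, and tyramine replicate 3 was again lowest. The mean fell from 26.2 ± 3.72 to 7.29 ± 2.7 CPM, 3.6-fold, the largest change among the 10 genes (edgeR log2 fold change -1.85 ± 0.34 SE, adjusted p = 0.0032). Of all tested genes, 8.43% had a lower log2 fold change than Cldn15, and 12.8% a lower one than Cldn2.

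Cldn12, on chromosome 5 (5489537 to 5514958, minus strand), did not pass the test. It stood at 34.2, 29.2 and 18.6 CPM in the controls and at 25.2, 19.1 and 48.9 CPM with tyramine, so the groups overlapped. Tyramine replicate 3, the lowest library for Cldn2, Cldn15 and Tjp3, was the highest for Cldn12. The log2 fold change was 0.18 (SE 0.36, 95% interval -0.63 to 1.0, edgeR adjusted p = 0.78), and without that library it was -0.31. The interval spans rises and falls of the size measured for Tjp1, so such a change of Cldn12 was not detectable with these libraries.

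The 250 bases before the RefSeq start are shown for Cldn2 and Cldn15, the pore-forming claudins that fell, to be set beside Cldn4, which rose. Sequences are RefSeq's, on GRCm38.p6, 5′ to 3′ on the gene's strand. RefSeq starts differ from GENCODE's, and the Cldn15 stretch lies inside the GENCODE span of the gene given above. Capitals mark matches on either strand to TGANTCA (AP-1), TTTATG (CDX, the caudal homeobox factors) or TATAAA (the TATA box).
Cldn2, chrX:139800558-139800807, plus strand: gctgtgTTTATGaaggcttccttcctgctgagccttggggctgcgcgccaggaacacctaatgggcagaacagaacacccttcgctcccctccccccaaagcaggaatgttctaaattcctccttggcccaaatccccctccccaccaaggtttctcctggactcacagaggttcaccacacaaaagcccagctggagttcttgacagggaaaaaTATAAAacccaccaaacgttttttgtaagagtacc
Cldn15, chr5:136967619-136967868, plus strand: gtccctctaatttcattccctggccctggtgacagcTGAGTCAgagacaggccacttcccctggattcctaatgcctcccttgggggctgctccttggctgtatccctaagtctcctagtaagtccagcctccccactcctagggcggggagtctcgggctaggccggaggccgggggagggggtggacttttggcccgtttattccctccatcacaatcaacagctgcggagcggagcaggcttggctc
Cldn4, chr5:134946935-134947184, minus strand: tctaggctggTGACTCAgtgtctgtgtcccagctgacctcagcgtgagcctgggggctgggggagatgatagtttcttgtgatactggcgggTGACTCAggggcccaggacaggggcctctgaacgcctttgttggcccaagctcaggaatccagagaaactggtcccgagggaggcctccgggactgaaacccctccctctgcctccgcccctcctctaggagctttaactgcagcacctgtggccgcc
The Cldn2 stretch held TTTATG starting 244 bases before the RefSeq start and TATAAA starting 35 bases before it. Among 32851 RefSeq promoters of the same length, 10.8% held TTTATG and 12.4% held TATAAA. The Cldn4 stretch held TGACTCA at 240 and at 158 bases before the start, and Cldn15 held TGAGTCA at 214 bases. The AP-1 letters were in 6.75% of all promoters, and 0.338% held 2 or more matches. They therefore occurred before a gene that rose and before a gene that fell, and in none of the other 8 genes' stretches. Also searched were CACCTG (an E-box that Snail binds, in 17.2% of promoters), TGACNNNGC (a core that NRF2 binds, 10.2%) and AGATAA (bound by GATA factors, 9.99%), each on both strands. The E-box letters were found for Cldn4, Cldn7, Ocln and Tjp3, those of NRF2 for Cldn15, overlapping its AP-1 match, and those of GATA for Tjp3. Cldn7, Cldn12, Ocln and Tjp3 have several RefSeq starts, and a match before any of them was counted. The percentages are per start, so they are not a like measure for those genes. For Cldn7 and Ocln the E-box letters lay before only some of the starts. A match describes the letters and is not evidence of binding.

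Of the sealing claudins, 1 of 4 rose and 0 fell, beside 12.5% rising and 13.3% falling among all tested genes. Cldn4, whose protein restricts the passage of sodium (chromosome 5, 134945119 to 134946934, minus strand), stood at 24.2, 28.8 and 27.2 CPM in the controls. With tyramine it stood at 58.5, 80.9 and 82.7 CPM, each at least 2.03-fold above the highest control. The mean rose from 26.7 ± 2.35 to 74 ± 13.5 CPM, 2.77-fold (edgeR log2 fold change 1.47 ± 0.19 SE, adjusted p = 0.00044). Of all tested genes, 94.7% had a lower log2 fold change.

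Cldn3, a sealing claudin that lies next to Cldn4 on chromosome 5 (134986214 to 134987472, plus strand), did not move with it. It was measured at 74.1, 85.5 and 79.1 CPM in the controls and at 70.0, 91.1 and 76.3 CPM with tyramine. The groups overlapped, with means of 79.5 ± 5.72 and 79.2 ± 10.8 CPM. The log2 fold change was -0.00715 (edgeR adjusted p = 0.98), and its 95% interval of -0.34 to 0.32 does not reach the change of Cldn4. Within each library, the length-scaled level of Cldn4 was 0.226, 0.234 and 0.239 times that of Cldn3 in the controls and 0.579, 0.615 and 0.751 times with tyramine. A stretch of 40 bases of Cldn3 overlaps an antisense RNA, and the strand setting of the counting is not given.

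Cldn7, which binds the adhesion protein EpCAM and also lies along the lateral membrane (chromosome 11, 69964779 to 69967885, plus strand), was at 104, 99.9 and 113 CPM in the controls and at 91.9, 94.4 and 89.4 CPM with tyramine. Each tyramine library lay below each control, but by as little as 1.06-fold, and the change did not pass the test (edgeR log2 fold change -0.20 ± 0.12 SE, 95% interval -0.46 to 0.07, adjusted p = 0.27). Epcam itself fell from 1433 ± 27.2 to 1053 ± 77.3 CPM (edgeR log2 fold change -0.44 ± 0.08 SE, adjusted p = 0.0033).

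Cldn23, a claudin linked to the barrier of surface cells (chromosome 8, 35824712 to 35826559, minus strand), was the least abundant of the 10, with 47 to 200 counts a library. Its level was 4.15, 1.29 and 3.4 CPM in the controls and 4.8, 6.29 and 4.14 CPM with tyramine, and control replicate 2 stood apart at the low end. The groups overlapped, and the log2 fold change of 0.79 had an SE of 0.67 (95% interval -0.70 to 2.27, edgeR adjusted p = 0.45). Without control replicate 2 it was 0.42. The interval leaves out falls as large as that of Cldn2 but holds rises as large as that of Cldn4.

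**Figure D2:**
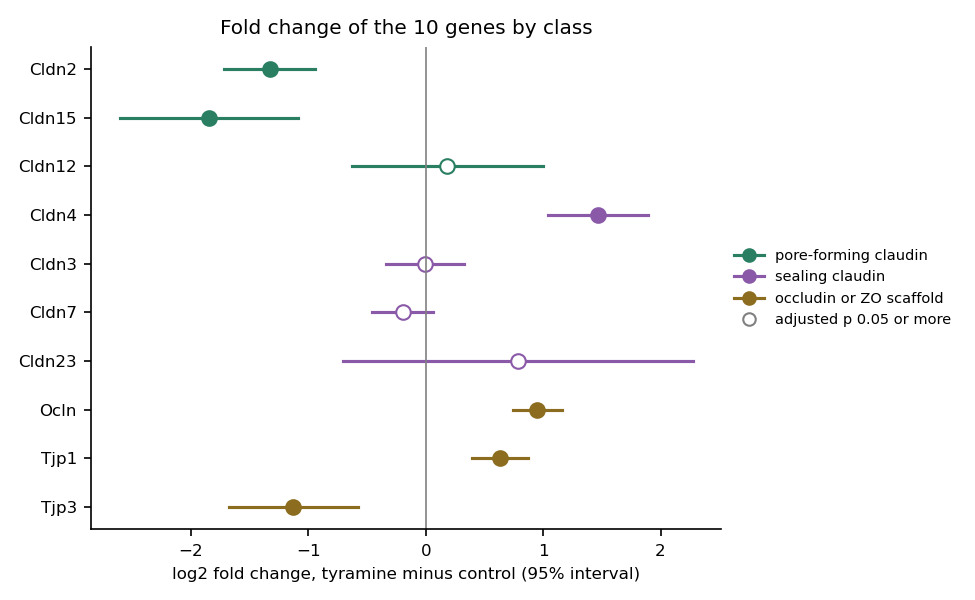
Log2 fold change (tyramine minus control, horizontal axis) of the 10 genes with 95% intervals, coloured by class; filled points passed the adjusted p threshold of 0.05 and open points did not. Cldn2 (-1.33) and Cldn15 (-1.85) lie left of 0, Cldn4 (1.47), Ocln (0.95) and Tjp1 (0.63) lie right of it, and Tjp3 (-1.13) lies apart from Tjp1.

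Set side by side, the median log2 fold change was -1.33 for the 3 pore-forming claudins and 0.39 for the 4 sealing claudins. These are descriptions of genes chosen by name, and no test was made over either class. Only some members of each class changed: Cldn2 and Cldn15 but not Cldn12 in the first, and Cldn4 but not Cldn3, Cldn7 or Cldn23 in the second. The sealing median lies between the values of Cldn3 (-0.00715) and Cldn23 (0.79), neither of which passed the test. It therefore does not measure the rise of Cldn4.

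To compare genes with each other, CPM was divided by the exon length in kilobases. In controls Cldn2 was the most abundant of the 10, at 226 ± 8.44 CPM per kilobase. Cldn3 (63.2 ± 4.54), Ocln (57.8 ± 4.28) and Cldn7 (54.1 ± 3.35) followed, with ranges that overlapped from each to the next. Tjp3 (31.4 ± 1.67) and Tjp1 (31.3 ± 1.1) came after them and overlapped each other, then Cldn4 (14.7 ± 1.29) and Cldn15 (12.3 ± 1.75), which also overlapped, then Cldn12 (6.47 ± 1.89) and Cldn23 (1.59 ± 0.802). With tyramine Ocln came first at 112 ± 3.76 CPM per kilobase, above Cldn2 at 89.8 ± 23.6 in each library. Cldn2 overlapped with Cldn3 (62.9 ± 8.57) in range. Tjp1 (48.5 ± 5.39) and Cldn7 (47.2 ± 1.28) overlapped each other, and Cldn4 came next at 40.8 ± 7.41. Tjp3 (14.3 ± 5.13), Cldn12 (7.34 ± 3.73), Cldn15 (3.43 ± 1.27) and Cldn23 (2.75 ± 0.595) came last, each overlapping the next.

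The make-up of the claudin mRNA shifted accordingly. Of the summed length-scaled level of the 7 claudins, the pore-forming class took 66.6%, 64.3% and 63.1% in control replicates 1 to 3. In tyramine replicates 1 to 3 it took 45.6%, 39.4% and 33.2%. The mean share was 64.7 ± 1.8% and 39.4 ± 6.2%, and the groups did not overlap. This share is a ratio within each library and does not depend on how libraries were scaled. Most of it was Cldn2, which alone held 59.7 ± 1.6% in controls and 35.1 ± 7.43% with tyramine. With Cldn2 left out, the share of Cldn12 and Cldn15 was 12.3 ± 1.76% and 6.57 ± 1.53%.

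Among the sealing claudins, the share of Cldn4 rose most, from 3.89 ± 0.361% to 16.2 ± 3.49%. Cldn3 went from 16.7 ± 1.23% to 24.7 ± 2.38% and Cldn7 from 14.3 ± 1.08% to 18.6 ± 1.24%, although neither gene's own level passed the test, since the sum they were divided by was lower. That sum was 382, 380.5 and 372 CPM per kilobase in the controls and 253, 279 and 231 with tyramine. The pore-forming sum was 245 ± 9.96 and 101 ± 21 CPM per kilobase, and the sealing sum was 134 ± 5.26 and 154 ± 15.6. The length-scaled level of Cldn2 was 17.7, 14.1 and 14.6 times that of Cldn4 in the controls and 3.29, 2.26 and 1.38 times with tyramine.

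**Figure D3:**
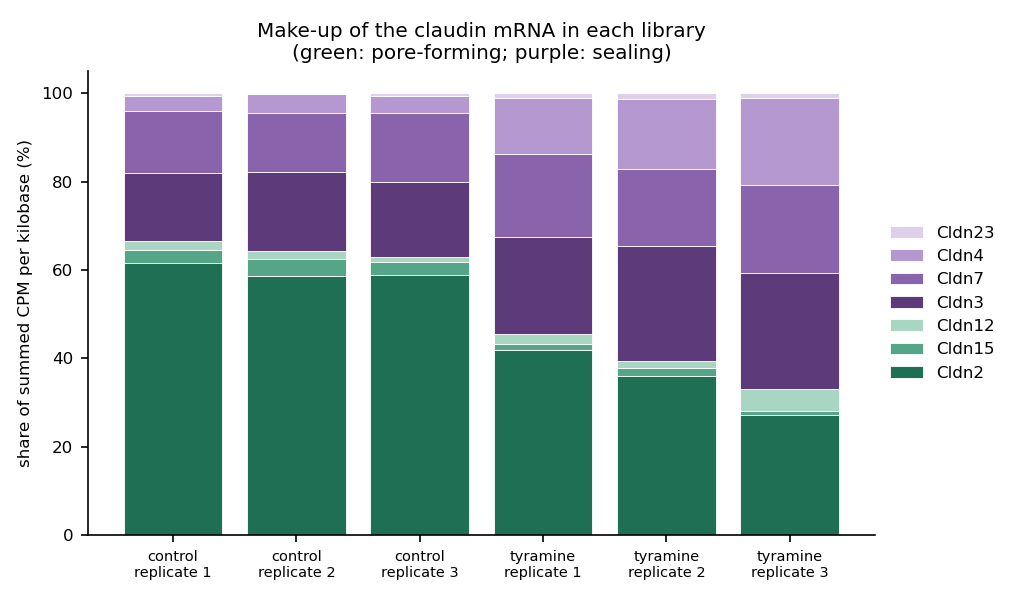
Share (%, vertical axis) of each of 7 claudins in their summed CPM per kilobase in each library, with pore-forming claudins in green and sealing claudins in purple. The green part ends at 63.1% to 66.6% in the 3 control libraries and at 33.2% to 45.6% in the 3 tyramine libraries.

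The strand and scaffold genes changed in all 3 cases, in both directions, beside 25.8% of all tested genes. Ocln, on chromosome 13 (100496507 to 100552718, minus strand), had the smallest adjusted p of the 10 genes. It stood at 240, 228 and 264 CPM in the controls and at 471, 456 and 487 CPM with tyramine, each at least 1.73-fold above the highest control. The mean rose from 244 ± 18.1 to 471 ± 15.9 CPM, 1.93-fold (edgeR log2 fold change 0.95 ± 0.09 SE, adjusted p = 7.6e-05).

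Tjp1 encodes the scaffold ZO-1, which positions claudin strands (chromosome 7, 65296165 to 65527781, minus strand). It was at 235, 249 and 251 CPM in the controls and at 332, 393 and 413 CPM with tyramine. The groups were apart and the mean rose 1.55-fold, from 245 ± 8.58 to 379 ± 42.1 CPM (edgeR log2 fold change 0.63 ± 0.11 SE, adjusted p = 0.002).

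Tjp3 encodes the related scaffold ZO-3, found mainly in epithelia (chromosome 10, 81273207 to 81291581, minus strand). It was at 124, 112 and 114 CPM in the controls and at 66.2, 62.2 and 31.3 CPM with tyramine, again with replicate 3 lowest. The mean fell 2.19-fold, from 117 ± 6.21 to 53.2 ± 19.1 CPM (edgeR log2 fold change -1.13 ± 0.25 SE, adjusted p = 0.0078), and without tyramine replicate 3 the log2 fold change was -0.86. Over 40 bases its exons overlap those of Apba3 on the opposite strand. The length-scaled level of Tjp1 was 0.904, 1.06 and 1.04 times that of Tjp3 in the controls and 2.38, 3.0 and 6.26 times with tyramine.

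Other claudins were close to the limit of detection. Of 20 further claudin genes listed in the counts, 12 had 0 counts in every library and 1, Cldn18, had enough to be tested. Cldn18, a claudin of stomach and lung, had 52, 0 and 0 counts in the controls and 42, 2 and 35 with tyramine (edgeR adjusted p = 0.84). The other 7 had at most 9 counts over all 6 libraries. Cldn1, the main claudin of the epidermis, had 0 counts in 5 libraries and 2 in tyramine replicate 2.

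The other genes of the junction were taken from lists written from general knowledge. Of 32 tested tight junction genes outside the 10, 8 rose, 3 fell and 21 did not pass the test, with a median log2 fold change of 0.36. Of all tested genes 12.5% rose and 13.3% fell. The 4 with the smallest p all rose. Mpp5, which encodes the polarity scaffold PALS1, went from 128 ± 10.9 to 229 ± 8.62 CPM (log2 fold change 0.84), and Pard6b, of the PAR polarity complex, from 93.8 ± 11.7 to 253 ± 71.8 CPM (1.43). F11r, the adhesion molecule JAM-A, went from 67.6 ± 3.08 to 131 ± 16.5 CPM (0.95), and Cgnl1, the cytoskeletal linker paracingulin, from 32.4 ± 7.93 to 80.8 ± 3.11 CPM (1.32). Their edgeR adjusted p-values ran from 0.00042 to 0.0011. The 3 that fell were Epcam, given above, Magi1, a scaffold (log2 fold change -0.77, edgeR adjusted p = 0.0026), and Arhgef2, an activator of small GTPases held at junctions (-2.34, edgeR adjusted p = 0.015). The call of Arhgef2 was lost without control replicate 1 or 3 (log2 fold changes from -2.63 to -1.92 over the alternatives).

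In the adherens junction, the belt below the tight junction, 5 of 13 tested genes rose, 2 fell and 6 did not pass. Over all tested genes 12.5% rose and 13.3% fell. Ctnna1, which links cadherin to actin, rose from 1482 ± 50.3 to 2050 ± 169 CPM (log2 fold change 0.47, edgeR adjusted p = 0.0027) and Vcl, vinculin, from 98 ± 9.83 to 152 ± 4.96 CPM (0.64, edgeR adjusted p = 0.0036). Lima1, an actin-binding partner of the cadherin complex, fell from 874 ± 19.3 to 474 ± 51.7 CPM (-0.88, edgeR adjusted p = 0.00016), and the adhesion gene Nectin3 fell from 89.7 ± 8.25 to 50.8 ± 3.35 CPM (-0.82, edgeR adjusted p = 0.0025). The rising count was 3 with library totals as the only scaling, 2 without control replicate 2 and 3 without control replicate 3.

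Among 13 kinases, proteases and protease inhibitors that act on junctions, 4 rose, 2 fell and 7 did not pass. The shares over all tested genes were 12.5% rising and 13.3% falling. Mylk, the kinase gene of myosin light chain, whose activity opens tight junctions, fell from 101 ± 8.84 to 29.6 ± 10.2 CPM (log2 fold change -1.77, edgeR adjusted p = 0.00063). Rock2, a kinase gene of the actin and myosin skeleton, rose from 395 ± 28.1 to 702 ± 141 CPM (0.83, edgeR adjusted p = 0.0017). Spint1, which inhibits the junctional protease matriptase, rose from 153 ± 20.9 to 260 ± 28 CPM (0.77, edgeR adjusted p = 0.002), and St14, the gene of matriptase itself, from 252 ± 30.6 to 331 ± 6.19 CPM (0.40, edgeR adjusted p = 0.023, lost in 5 of 14 alternatives, with values of 0.30 to 0.48). The kinase gene Wnk1 rose from 133 ± 3.8 to 195 ± 15.7 CPM (0.55, edgeR adjusted p = 0.0044). The falling count was 1 without any 1 control library or without tyramine replicate 2.

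Of 19 tested transcription factor genes known to act on epithelial junction genes, 5 fell, 1 rose and 13 did not pass. Among all tested genes 13.3% fell and 12.5% rose. Cdx2, an intestinal homeobox factor known to act on Cldn2, had 23.4, 20.7 and 17.5 CPM in the controls and 6.42, 5.09 and 6.26 CPM with tyramine (edgeR log2 fold change -1.79 ± 0.31 SE, adjusted p = 0.0024). Hnf4a, a factor of enterocyte identity, fell from 534 ± 34.5 to 230.5 ± 29.4 CPM (-1.21, edgeR adjusted p = 5.4e-05). Vdr, the vitamin D receptor, also known to act on Cldn2, fell from 88.3 ± 11.9 to 19.7 ± 4.5 CPM (-2.16, edgeR adjusted p = 7.9e-05), and Ehf fell from 32.7 ± 4.18 to 15.4 ± 4.09 CPM (-1.09, edgeR adjusted p = 0.013, lost without control replicate 3). The 1 that rose, Grhl3, a grainyhead factor of surface epithelia, had 9, 0 and 11 counts in the controls and 115, 173 and 85 with tyramine. Its call was lost in 6 of 14 alternatives, among them those without any 1 control library, while its log2 fold change, 4.18 as reported, ran from 3.59 to 5.22 over the alternatives. Snai1, a repressor of claudin genes, had 0 counts in every library, and Snai2 and Twist1 had too few to be tested.

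**Figure D4:**
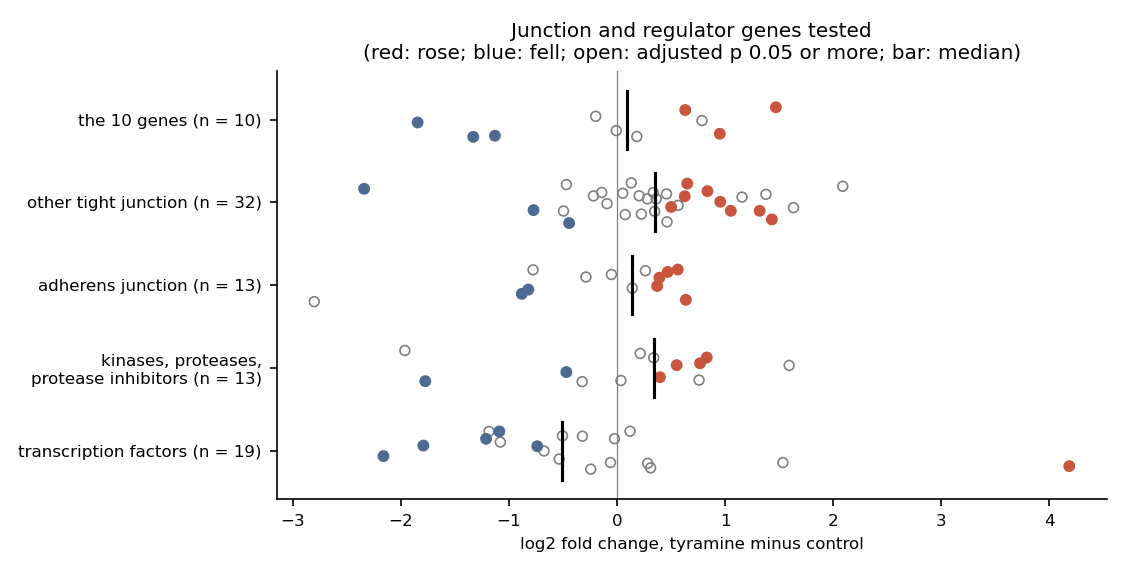
Log2 fold change (horizontal axis) of every tested gene in the 10 and in 4 lists of junction genes and regulators; red points rose, blue points fell, open points had an adjusted p of 0.05 or more, and black bars are medians. Among transcription factors Vdr lies lowest of those that fell, at -2.16, and among the other tight junction genes Pard6b lies highest of those that rose, at 1.43.

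By profile over the 6 libraries, the genes most like Cldn2 among 9114 candidates were Etfb, Abcd3 and Atp1b1. Their root mean square distances from its centred log2 CPM were 0.06, 0.08 and 0.09. Etfb encodes an electron carrier of mitochondria, Abcd3 a peroxisomal fatty acid transporter and Atp1b1 a subunit of the sodium pump. For Cldn4 the nearest were Rc3h1, Abl2 and Ajuba, at 0.11, 0.11 and 0.12. The libraries fall into 2 groups, so any gene with a like fold change and a like order within groups scores as near.

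Several cell markers differed between the groups alongside the junction genes. Their counts stand beside 12.5% rising and 13.3% falling among all tested genes. In bulk RNA, fewer cells of a type and less RNA per cell cannot be told apart. Of 12 markers of dividing crypt cells, 11 fell and 0 rose, and their summed level ran from 2851 to 3520 CPM in controls and from 294 to 320 CPM with tyramine. Of 12 markers of villus enterocytes 12 fell, and their sums were 16250 to 17300 CPM in controls and 3135 to 3181 CPM with tyramine. Of 11 tested secretory markers 4 fell and 0 rose, with sums of 1067 to 1097 and 326 to 510 CPM. Most of the secretory sum was Chgb, at means of 904 CPM in controls and 340 CPM with tyramine. Chga, Clca1 and Agr2 also fell, while Muc2, Tff3, Spink4, Lyz1 and Defa24 were among those that did not pass. Of 9 tested markers of squamous or basal epithelium 4 rose and 1 fell, with sums of 34.3 to 40 and 538 to 995 CPM, while the basal factor Trp63 averaged 0.0183 and 0.141 CPM. The part of these markers in the changes of Cldn2, Cldn15, Cldn4 or the scaffold genes was not tested.

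General markers of gut epithelium were abundant in both groups, at 22850 to 24360 CPM in controls and 19760 to 22160 CPM with tyramine, with 5 of 12 falling and 2 rising. Cdh1, E-cadherin, rose from 788 ± 54.2 to 1034 ± 65.5 CPM (log2 fold change 0.39, edgeR adjusted p = 0.0097, lost without control replicate 2). Mesenchymal markers summed to 14.7 to 15.5 and 11.5 to 12.6 CPM and immune markers to 5.96 to 9.73 and 6.98 to 11.2 CPM. The endothelial markers summed to 0.658 to 1.55 and 9.42 to 17.7 CPM. Most of the latter was Esam, a junction adhesion molecule, at 0.387 and 12.1 CPM, while the defining genes Cdh5 and Kdr averaged at most 0.0899 CPM in either group.

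The calls of the 10 genes were stable to the processing. With 14 other settings, among them other scalings, filters and tools and each library left out, 6 of the 10 passed the threshold each time, 3 rising and 3 falling. Nearest to the threshold came Tjp3 (edgeR adjusted p = 0.043 without control replicate 1) and Cldn15 (edgeR adjusted p = 0.026 without control replicate 2). Over those settings the log2 fold change ran from -1.46 to -1.13 for Cldn2, from -2.16 to -1.62 for Cldn15, from -1.31 to -0.86 for Tjp3, from 1.38 to 1.61 for Cldn4, from 0.87 to 1.0 for Ocln and from 0.54 to 0.72 for Tjp1.

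**Figure D5:**
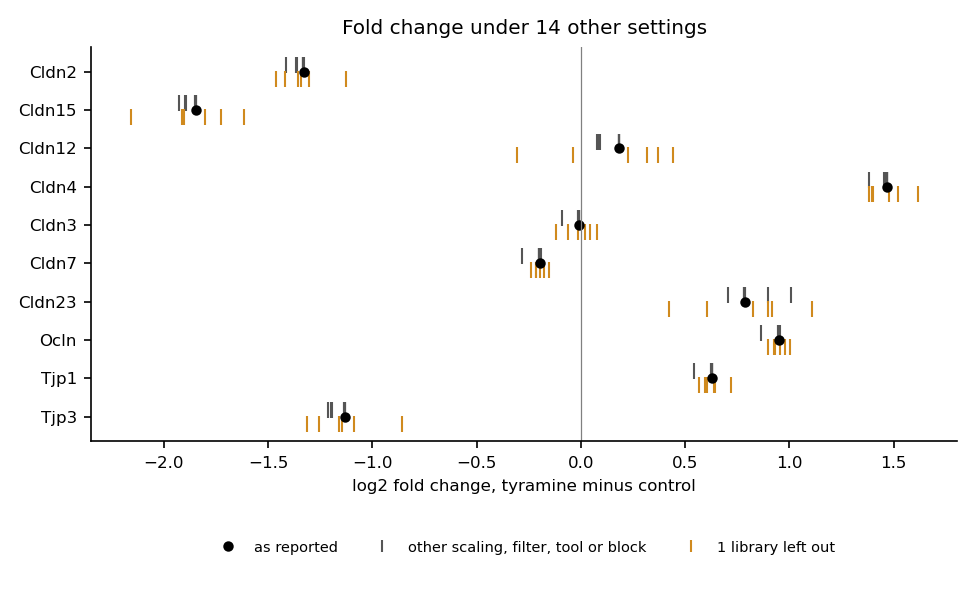
Log2 fold change (horizontal axis) of the 10 genes as reported (black points), under 8 other choices of scaling, filter, tool or block (grey ticks) and with each of 6 libraries left out (orange ticks). The ticks of Cldn2, Cldn15 and Tjp3 all lie below 0 and those of Cldn4, Ocln and Tjp1 above it, while those of Cldn12 run from -0.31 to 0.44.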

How the data were processed

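Raw counts per gene symbol were used as deposited by the authors, 1 column per library, matched to groups by the sample titles. The submitters' processing notes name STAR 2.5.3a and mm10. Which program and annotation made the counts, the strand setting and any molecular identifiers are not stated there, so intervals cover the spread between libraries and not independent molecules. Genes were filtered with filterByExpr (minimum count 10, minimum total 15), which left 12139; TMM scaling factors ran from 0.962 to 1.04. All 6 libraries entered a robust quasi-likelihood fit in edgeR 4.0.16 (R 4.3.3) with a group term alone, after the scripts had been tested on simulated counts. An SE was obtained as the fold change on the log2 scale over the square root of F. Gene lengths and positions are those of GENCODE M21. The members and lists were chosen with earlier results of these data known. Named genes were the 10, up to 4 called genes per junction list by smallest p (otherwise the tested gene with the smallest p), and the 3 genes nearest to Cldn2 and to Cldn4 (mean log2 CPM of at least 2). Cldn1, Epcam, Magi1, Arhgef2, Cdh1, St14, Grhl3, Snai1, Snai2, Twist1 and the markers singled out were chosen after their values were seen. Rows named by dates (26) or by a repeated symbol (2) stayed in the fit. Some genes counted in the lists are not reported here by name. Alternatives included DESeq2 1.42.0 and limma-voom 3.58.1.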

Additional observations from a re-analysis of the deposited data

How the results depend on the processing

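Of 140 recomputed log2 fold changes of the 10 genes (14 alternatives each), 135 kept their direction and their side of the threshold, and 5 reversed, all of genes that did not pass. Cldn3, at -0.00715 as reported, was 0.043, 0.076 and 0.019 without control replicate 2, tyramine replicate 1 and tyramine replicate 3 (range with 1 library left out -0.12 to 0.076), and Cldn12, at 0.18, was -0.037 and -0.31 without control replicate 3 and tyramine replicate 3 (range -0.31 to 0.44). Over all genes, 3127 passed (1518 rising and 1609 falling), and with 1 library left out 1977 to 3307 (934 to 1510 rising, 1035 to 1797 falling). The total was 1977 to 2075 without 1 control library (1995, 1977 and 2075 without replicates 1, 2 and 3) and 2933 to 3307 without 1 tyramine library, and the cause was not tested. The median log2 fold change of the sealing claudins, 0.39, was 0.79 without Cldn7 and 0.23 to 0.52 with 1 library left out. That of the pore-forming claudins, -1.33, was -1.59 without Cldn12. The pore-forming share, 64.7% in controls and 39.4% with tyramine, was 75.5% and 48.4% without Cldn7, 78.9% and 57.1% from CPM not scaled by length, 62.8% in controls with the longest transcript as length, and 12.3% and 6.57% with Cldn2 left out. It was 64.05% in controls and 37.5% with tyramine without Cldn12, and 63.7% to 65.5% and 36.3% to 42.5% with 1 library left out.

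The replicate numbers are shared between the groups, but same-numbered libraries did not deviate together (correlations of -0.0188, -0.0105 and 0.0109 over genes), so they were not treated as pairs. With the replicate number as a block, 2594 genes passed, the same 6 of the 10 genes were counted as changed (3 rising, 3 falling), 3 adherens junction genes rose in place of 5 and 0 transcription factor genes in place of 1. The cause was not tested. Adherens junction genes that rose also numbered 3 with library totals alone and those that fell numbered 4 with limma-voom; with 1 library left out, 2 to 4 rose, 1 to 2 of the kinase and protease genes fell and 0 to 1 transcription factor gene rose. Alternatives for the junction lists, and the share with Cldn2 left out, were chosen after seeing the data. Cldn23 had the fewest counts of the 10 genes, 47 to 200 a library.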
